A study of Mus musculus with 19 samples.

Results

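The NRF2 pathway lets a cell answer oxidants and reactive chemicals by making more of its own protective enzymes. The transcription factor NRF2, encoded by Nfe2l2, is held by KEAP1 in the cytosol and passed on for degradation; when cysteines of KEAP1 are modified, NRF2 accumulates, pairs with a small MAF protein in the nucleus and binds antioxidant response elements beside its target genes. In macrophages these targets supply glutathione, reduce oxidised proteins and degrade heme, while the same cells make superoxide and nitric oxide against microbes. The 10 genes described here were taken by symbol from a table of 46095 gene symbols and cover the regulators Nfe2l2 and Keap1, the heme and quinone enzymes Hmox1 and Nqo1, the glutathione synthesis genes Gclm and Gclc, and the thioredoxin and peroxiredoxin genes Srxn1, Txnrd1, Txn1 and Prdx1. All 10 had a row in the table and passed the filter on low counts in both cell types.

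The RNA came from marrow cells of C57bl/6 mice that had been centrifuged at 15 G for 15 min, in an intervention of about 1 or 3 weeks, or kept as controls listed at 0 G. Bone marrow-derived macrophages (BMDM) form when marrow is cultured with M-CSF, and bone mesenchymal stem cells (BMSC) are stromal precursors that can give rise to bone and fat. The labels describe the same M-CSF medium for both. For BMDM the 1 week set held 3 controls and 2 hypergravity libraries and the 3 week set 2 and 2, and for BMSC the sets held 3 and 3, and 2 and 2. No duration is labelled for the controls set beside the 1 week mice. The labels name no age, and they do not say whether libraries came from separate mice or cultures, so p-values measure only the spread between libraries, which may be technical.

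Library totals ran from 16324619 to 33015671 counts, and the lowest count of any of the 10 genes in any library was 143, for Nqo1. Summed levels of 8 macrophage markers were of similar size in both cell types, 22100 to 30800 CPM (counts scaled to a library total of 1000000) in BMDM and 22300 to 27500 CPM in BMSC, and none was at 0 in any group. The 9 stromal markers summed to 1670 to 10300 CPM in BMSC and 10.3 to 62.4 CPM in BMDM. The libraries labelled BMSC thus carried macrophage as well as stromal markers. They also carried neutrophil markers, with 9 genes summing to 1030 to 3070 CPM, against 27.1 to 556 CPM in BMDM. Fewer cells of a type and less RNA per cell cannot be told apart in such bulk RNA.

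RefSeq promoters of GRCm38.p6, 250 bases before to 50 bases after the start site, were matched by symbol for 8 of the 10 genes. Hmox1 and Gclc had no match. Because Txnrd1 has several start sites, this gave 10 promoters. The genes were chosen as genes of this pathway, and binding to these promoters was not tested. The core of the antioxidant response element, searched as TGACNNNGC on both strands, was present in 5 of these 10 promoters and in 12.4% of all 32851 promoters of that length. The AP-1 motif, searched as TGANTCA on both strands, was present in 2 of the 10 and in 7.81% of all. A match describes letters in this window only.

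The promoters of Srxn1 (chr2:152105274-152105573, plus strand), Prdx1 (chr4:116685349-116685648, plus strand) and Gclm (chr3:122245307-122245606, plus strand) are written 5′ to 3′ on the gene strand, with matches to either motif in capitals. In the Prdx1 promoter the second run of capitals is an overlap of both motifs.
Srxn1: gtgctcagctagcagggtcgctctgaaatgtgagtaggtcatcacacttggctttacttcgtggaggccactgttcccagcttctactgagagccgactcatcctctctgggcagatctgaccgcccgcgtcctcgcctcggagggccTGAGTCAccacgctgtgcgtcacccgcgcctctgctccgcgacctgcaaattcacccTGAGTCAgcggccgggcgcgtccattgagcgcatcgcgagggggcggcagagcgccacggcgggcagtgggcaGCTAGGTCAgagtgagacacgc
Prdx1: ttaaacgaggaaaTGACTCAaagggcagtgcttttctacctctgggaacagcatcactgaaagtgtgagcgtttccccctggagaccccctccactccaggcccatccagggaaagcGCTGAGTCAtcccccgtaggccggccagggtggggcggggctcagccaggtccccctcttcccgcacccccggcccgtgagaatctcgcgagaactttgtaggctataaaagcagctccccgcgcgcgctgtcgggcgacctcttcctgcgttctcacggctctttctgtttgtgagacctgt
Gclm: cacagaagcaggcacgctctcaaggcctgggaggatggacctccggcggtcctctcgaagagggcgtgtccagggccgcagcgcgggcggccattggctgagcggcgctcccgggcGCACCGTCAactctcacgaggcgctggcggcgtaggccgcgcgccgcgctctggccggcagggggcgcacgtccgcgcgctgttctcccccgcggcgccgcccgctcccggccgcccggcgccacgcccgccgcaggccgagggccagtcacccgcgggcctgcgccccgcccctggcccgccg

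The antioxidant response element cores of the remaining promoters with a match are shown with 6 flanking bases on each side, on the strand that reads as the motif, with the motif in capitals. The Nfe2l2 match began 240 bases before the start site on the gene strand, and the Txnrd1 match began 92 bases before the middle one of its 3 start sites on the opposite strand. They lie at chr2:75704895-75704903 and chr10:82859114-82859122.
Nfe2l2: cccaccTGACTCCGCcatgcc
Txnrd1: tcagaaTGACAAAGCaaaaat

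In BMDM after 1 week, all 10 genes were higher in hypergravity libraries than in controls, with fold changes of 1.26 for Nfe2l2 to 10.8 for Hmox1 and a median log2 change of 1.52 against −0.029 over all 13842 genes tested. A call here is an adjusted p below 0.05 by edgeR's quasi-likelihood test, adjusted over all genes tested; 61.4% of all genes were called in this comparison, 30.5% higher and 30.8% lower. Hypergravity libraries lay above all controls in CPM for each of the 10, where 25.7% of all genes were higher with no overlap and 47.4% lower. Together the 10 genes made up 0.827 to 1.03% of all counts in the 3 controls and 2.05 to 2.2% in the 2 hypergravity libraries.

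Among the regulators, Nfe2l2 (chromosome 2, 75675513 to 75704641, mm10) stood at 413, 383 and 415 CPM in the 1 week BMDM controls and at 430 and 419 CPM in the hypergravity libraries. The groups lay close together without overlap, and the fitted log2 change was 0.34 ± 0.08 (SE, 3 against 2 libraries, edgeR adjusted p = 0.00446). This was the least change of the 10 and rested on the scaling: TMM factors of 0.853 and 0.868 in the hypergravity libraries raise their fitted levels, and with library size alone the log2 change of Nfe2l2 was 0.0718 (adjusted p = 0.445). That scaling moved the median of all genes from −0.029 to −0.291 and the calls from 4225 higher and 4269 lower to 3077 and 5803; the other 9 genes were still called higher under it. Keap1 (chromosome 9, 21229730 to 21239361), the adaptor that presents NRF2 to a ubiquitin ligase, stood at 70.2, 64.0 and 73.2 CPM in controls and at 89.0 and 86.2 CPM under hypergravity. Its log2 change was 0.60 ± 0.09 (edgeR adjusted p = 0.000266).

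Hmox1 (chromosome 8, 75093621 to 75100589), heme oxygenase 1, which cleaves heme to biliverdin, iron and carbon monoxide, had the steepest rise. It stood at 731, 838 and 915 CPM in controls and at 7575 and 7324 CPM in hypergravity libraries, a log2 change of 3.43 ± 0.10 (edgeR adjusted p = 3.48e-09). Hmox1 alone took 0.732 to 0.758% of all counts under hypergravity, against 0.0731 to 0.0914% in controls. Nqo1 (chromosome 8, 107388225 to 107403206), a quinone reductase, stood at 6.19, 8.34 and 8.47 CPM in controls and at 21.6 and 21.8 CPM under hypergravity. Its rise, 1.78 ± 0.16 on the log2 scale (edgeR adjusted p = 7.8e-06), was similar in size to that of Gclm and Txnrd1.

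Gclm and Gclc encode the modifier and the catalytic subunit of glutamate-cysteine ligase, which makes the first bond of glutathione. Gclm (chromosome 3, 122245557 to 122270732) rose from 138, 158 and 151 CPM to 431 and 427 CPM (log2 change 1.79 ± 0.09, edgeR adjusted p = 9.66e-08). Gclc (chromosome 9, 77754535 to 77794485) rose from 50.8, 56.9 and 70.1 CPM to 127 and 141 CPM (1.44 ± 0.12, adjusted p = 4.22e-06). The ratio of Gclm to Gclc, taken from CPM per kb of exon, was 1.62, 1.66 and 1.29 in the controls and 2.03 and 1.81 under hypergravity. Gclm shares 3.24% of its 50-base stretches with Ppia, which averaged 5.51 CPM, and 3.07% with the pseudogene Gm10123, which averaged 461 CPM. It also shares 244 bases of its exons with Gm6061 on the same strand. How reads were divided between these genes is uncertain.

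The thioredoxin and peroxiredoxin genes rose as well. Txnrd1 (chromosome 10, 82833951 to 82897712), the reductase that keeps thioredoxin reduced with NADPH, stood at 325, 333 and 343 CPM in controls and at 990 and 1025 CPM under hypergravity (1.86 ± 0.07, edgeR adjusted p = 1.98e-08). Srxn1 (chromosome 2, 152105516 to 152111376), sulfiredoxin, which repairs over-oxidised peroxiredoxins, stood at 370, 377 and 326 CPM in controls and at 881 and 858 CPM under hypergravity (1.54 ± 0.09, adjusted p = 2.59e-07). Both groups of each gene were tight, with hypergravity libraries far above every control.

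Txn1 (chromosome 4, 57943373 to 57956411), the cytosolic thioredoxin, stood at 356, 301 and 269 CPM in controls and at 776 and 686 CPM under hypergravity (1.51 ± 0.12, edgeR adjusted p = 2.9e-06). Prdx1 (chromosome 4, 116685544 to 116700822), a peroxiredoxin that reduces hydrogen peroxide, stood at 7846, 6857 and 5704 CPM in controls and at 10680 and 9492 CPM under hypergravity (0.83 ± 0.13, adjusted p = 0.000341). Prdx1 shares 5.44% of its 50-base stretches with the pseudogene Gm21399, which averaged 196 CPM. Txn1 shares 2.5% with Txn-ps1.

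**Figure D1:**
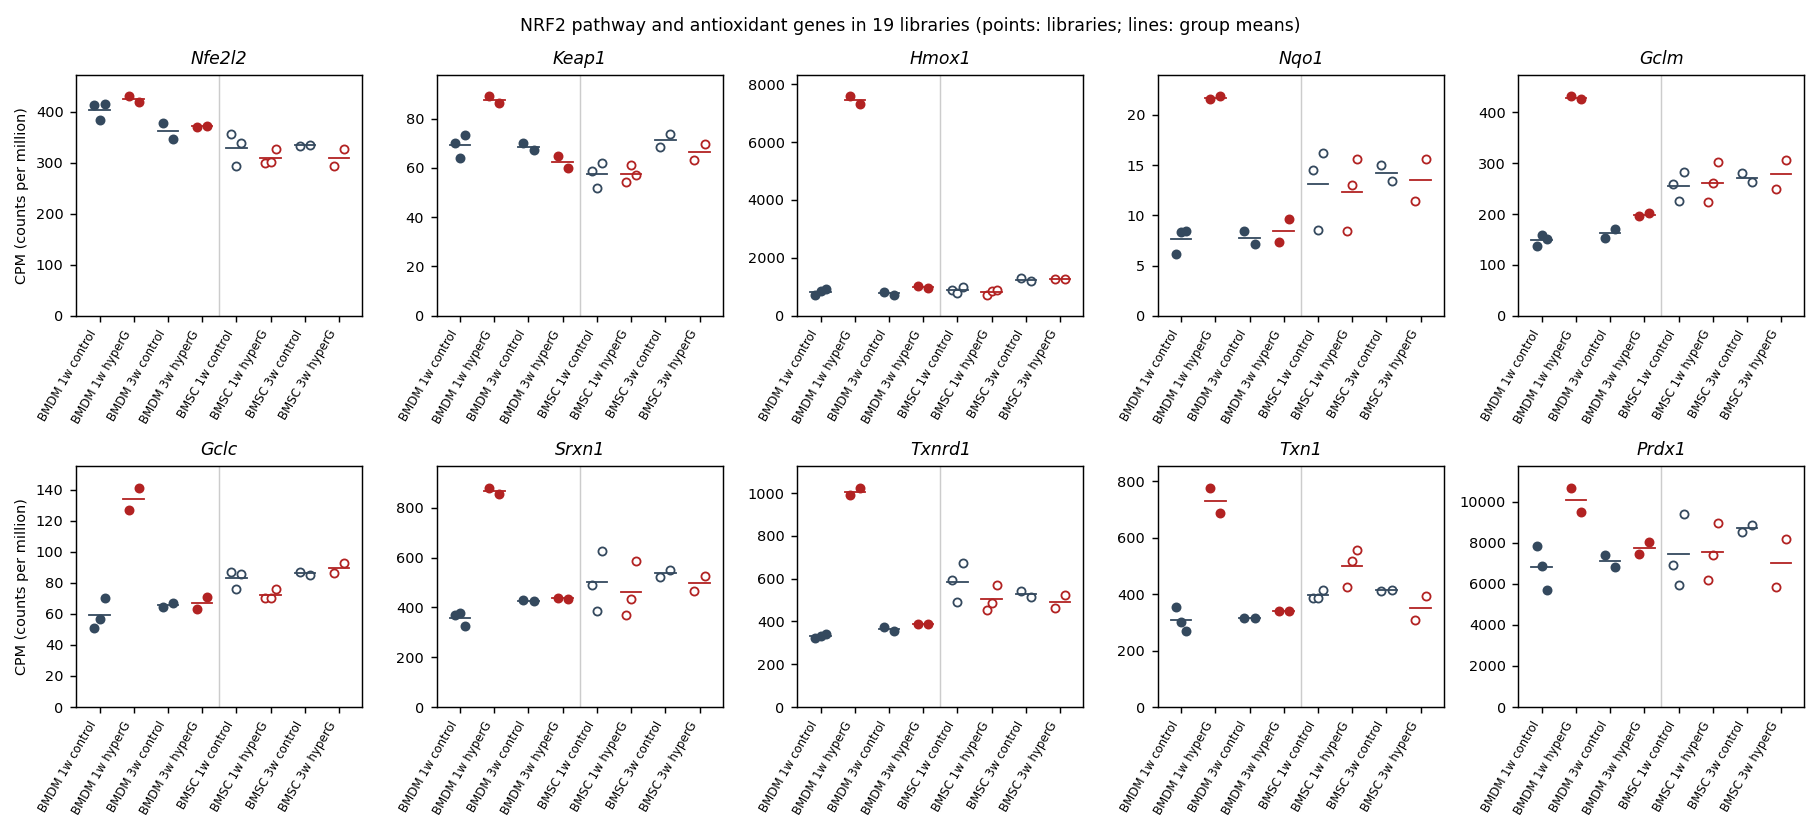
CPM of the 10 genes in each of 19 libraries, 1 panel per gene with its own axis from 0; filled points are BMDM, open points BMSC, red hypergravity (hyperG) and blue-grey control, and lines are group means. In every panel the 1 week BMDM hypergravity libraries are the highest group, from 7324 to 7575 CPM for Hmox1 and 418.6 to 430.3 CPM for Nfe2l2.

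Compared per kb of exon, so that genes can be set beside each other, Prdx1 and Hmox1 were the most abundant in the 1 week BMDM controls at 2235 and 473 CPM per kb. They were followed by Txn1 (294 CPM per kb), Srxn1 (127), Nfe2l2 (106), Txnrd1 (47.1), Gclm (23.7), Gclc (15.7), Keap1 (14.7) and Nqo1 (4.94). In the 1 week hypergravity libraries Hmox1 stood at 4255 and Prdx1 at 3315 CPM per kb, so that their order was turned. The order depends on the length used: per kb of the longest transcript, Nfe2l2 (163 CPM per kb in the controls) stood above Srxn1 (127) and Keap1 (19.1) above Gclc (17.3), Txnrd1 stood at 92.1, and Hmox1 again passed Prdx1 under hypergravity (4748 against 4397). The ratio of Keap1 to Nfe2l2 per kb of exon was 0.135 to 0.143 in the controls and 0.167 in both hypergravity libraries of that set.

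Markers of other marrow cells also moved in the 1 week BMDM comparison. Neutrophil markers were lower for 6 of 9 genes, with summed levels of 261 to 556 CPM in controls and 184 to 218 CPM under hypergravity. Endothelial markers summed to 10.4 to 16.3 CPM in controls and 40.1 to 46.1 CPM under hypergravity, with 2 of 6 genes called higher and 1 lower. Of all genes in this comparison, 30.5% were called higher and 30.8% lower. Macrophage markers, with 2 of 8 genes higher and 4 lower, summed to 27800 to 30800 CPM in controls and 22100 to 22500 CPM under hypergravity. Stromal markers summed to at most 62.4 CPM in any of these libraries. B cell markers summed to 5.26 to 6.96 CPM in controls and 2.3 to 2.35 CPM under hypergravity. Of 3 tested B cell genes, 1 was called higher and 1 lower. Those of T and NK cells summed to 1.42 to 2.24 CPM against 0 to 0.333 CPM, with 1 gene tested and called lower. Those of mast cells and basophils summed to 1.35 to 4.13 CPM against 0.0909 to 0.3 CPM, with 2 genes tested and 2 called lower. The part of these cells in the changes of the 10 genes was not tested.

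In BMDM after 3 weeks, none of the 10 genes was called by edgeR or by DESeq2, in a comparison where 0.426% of all genes were called, all of them higher. By edgeR, 2 of the 10 had an unadjusted p below 0.05. Hmox1 stood at 811 and 730 CPM in controls and at 1024 and 964 CPM under hypergravity, a log2 change of 0.41 ± 0.11 (edgeR adjusted p = 0.391). Gclm stood at 152 and 172 CPM in controls and at 196 and 202 CPM under hypergravity (0.33 ± 0.10, adjusted p = 0.551). For these 2 genes and for Srxn1, Txnrd1, Txn1 and Prdx1, both hypergravity libraries lay above both controls, which held for 12.8% of all genes. For Keap1 both lay below, at 65.03 and 59.97 CPM against 70.0 and 67.3 CPM in controls, which held for 24.9% of all genes. The 95% intervals of the 10 log2 changes spanned −0.326 to 0.644.

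Whether Hmox1 was called at 3 weeks depended on the fit. Its log2 change stayed near 0.41, and the edgeR adjusted p was 0.0178 with no count filter, 0.00928 with the replicate number as a block, 0.017 with only the 2 groups compared and 0.0335 without 1 week control 3. With each other library left out in turn and under the other alternatives it was not called.

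The difference between sets, 3 week response minus 1 week response, was called for 9 of the 10 genes in BMDM and negative for all of them, where 43.4% of all genes were called, 21.9% higher and 21.5% lower. With library size alone, which moves the calls from 3037 higher and 2971 lower to 4134 and 2201, 8 of the 10 were called. Hmox1 gave the greatest difference, −3.03 ± 0.14 on the log2 scale (edgeR adjusted p = 6.73e-07). Nfe2l2 was not called (−0.26 ± 0.12, adjusted p = 0.103; 0.0407 with the replicate number as a block). The call for Prdx1 (−0.67 ± 0.20, adjusted p = 0.0199) was lost with library size alone (0.0706) and when 1 week hypergravity library 1, 3 week control 1 or either 3 week hypergravity library was left out (0.0548 to 0.0949). Between the 3 week and the 1 week BMDM controls 0 of the 10 were called by edgeR and by DESeq2, and 2 had an unadjusted p below 0.05, where 3.97% of all genes were called, 1.55% higher and 2.41% lower. The 95% intervals of these log2 differences spanned −0.413 to 0.411. Erythroid markers summed to 12.3 to 12.7 CPM in every 3 week BMDM library and to at most 1.06 CPM in the 1 week libraries. Neutrophil markers were called lower in the 3 week than in the 1 week controls for 9 of 9 genes (27.1 to 59.4 CPM in sum against 261 to 556 CPM), and 5 of 9 were called higher in the difference between sets. The part of these cells was not tested. Duration and set cannot be told apart.

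**Figure D2:**
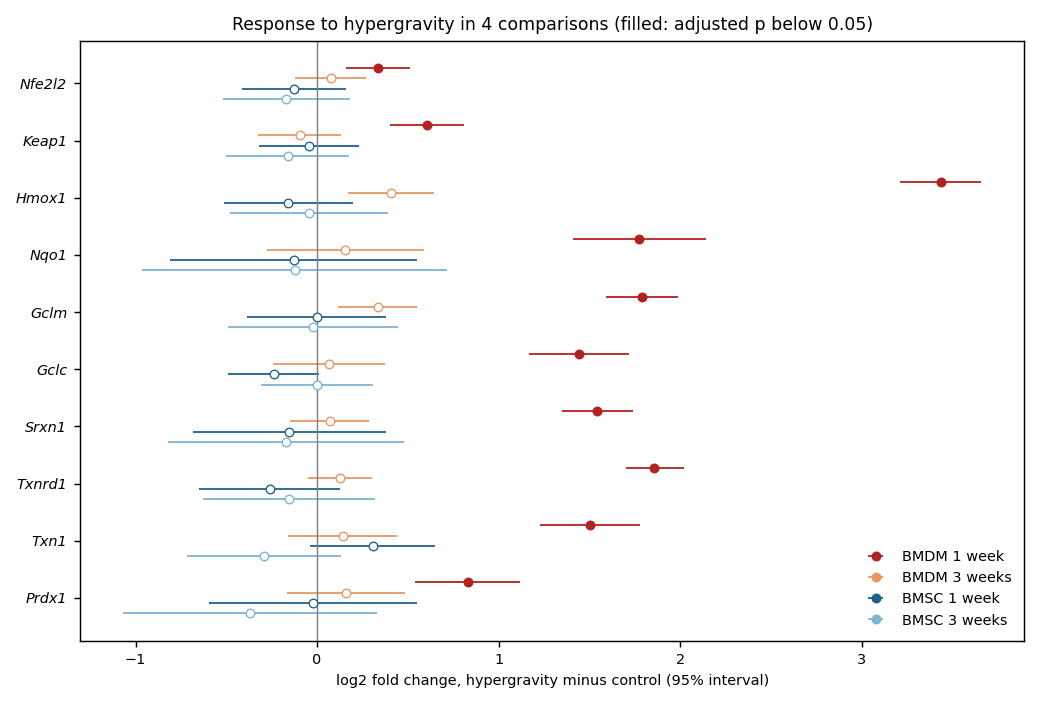
Log2 fold change of each gene, hypergravity minus control, in the 4 comparisons, with 95% intervals of the edgeR fit; 1 colour per comparison; filled points have an adjusted p below 0.05. The 10 filled points all belong to BMDM at 1 week and lie between 0.34 for Nfe2l2 and 3.43 for Hmox1.

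In BMSC none of the 10 genes was called at 1 week, where 2.72% of all genes were called. None had an unadjusted p below 0.05 by edgeR, and DESeq2 called none. Hmox1 stood at 881, 788 and 993 CPM in controls and at 707, 854 and 889 CPM under hypergravity, with overlapping groups and a log2 change of −0.16 ± 0.16 (95% interval −0.514 to 0.197). Txn1 was the only one of the 10 whose groups did not overlap, at 384, 385 and 416 CPM in controls and at 426, 517 and 555 CPM under hypergravity (0.31 ± 0.16, adjusted p = 0.33); 11.2% of all genes were higher with no overlap, and 9.33% lower. The 95% intervals of the 10 genes spanned −0.808 to 0.652. The number of all genes called at 1 week, 416, fell to 0 when hypergravity library 2 or control 1 was left out.

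After 3 weeks in BMSC none of the 10 genes was called, with log2 changes from −0.37 for Prdx1 to −0.00075 for Gclc. The sign was not settled for Hmox1, Gclm and Gclc: their mean CPM was slightly higher under hypergravity (1261 against 1246, 278 against 271 and 89.6 against 86.0 CPM), and with library size alone all 3 log2 changes lay above 0. That of Nqo1 was 0.113 without hypergravity library 1. No gene of the 15289 tested was called by edgeR (0%), with 800 at an unadjusted p below 0.05 and 4 called by DESeq2. Prdx1 stood at 8543 and 8865 CPM in controls and at 5846 and 8178 CPM under hypergravity (edgeR adjusted p = 0.928). Nfe2l2, Txn1 and Prdx1 were lower in both hypergravity libraries than in both controls, which held for 14.4% of all genes, while 31.2% were higher in both. Txn1 stood at 411 and 415 CPM in controls and at 309.3 and 392.0 CPM under hypergravity, against its higher hypergravity libraries at 1 week. The test of that difference between sets missed the threshold (−0.60 ± 0.25, edgeR adjusted p = 0.501), and edgeR called none of the 10 genes and none of all genes (0%; 1423 at an unadjusted p below 0.05, 128 called by DESeq2).

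The BMSC libraries differed in their stromal marker level, and several of the 10 genes were low where that level was high. In the 1 week set the summed stromal level was 9554 CPM in control 2 and 10310 CPM in hypergravity library 1, and Nqo1 there stood at 8.53 and 8.47 CPM. Control 3 and hypergravity library 3 had stromal levels of 3245 and 4960 CPM, and Nqo1 at 16.2 and 15.6 CPM. Srxn1 showed the same split, with 386 and 369 CPM in the former pair and 626 and 585 CPM in the latter. For the other two libraries of the set, Nqo1 and Srxn1 lay between the values of these pairs. Hypergravity library 2, at a stromal level of 8433 CPM, had Nqo1 at 13.01 CPM and Srxn1 at 435 CPM, and control 1, at 4133 CPM, had 14.5 and 491 CPM. In the 3 week set hypergravity library 1 had the highest stromal level, 7398 CPM against 1672 to 3316 CPM in the other 3, and the lowest Nqo1, Srxn1, Prdx1 and Txn1. Txn1 did not follow the stromal level in the 1 week set, where hypergravity libraries 1 and 2 stood at 425.7 and 517.1 CPM and the low-stromal controls 1 and 3 at 384.2 and 415.5 CPM. Endothelial markers summed to 291 and 342 CPM in the former pair of 1 week libraries and to 121 and 113 CPM in the latter. Neutrophil markers summed to 3070 and 2431 CPM against 1668 and 1033 CPM. Control 1 carried neutrophil markers at 2870 CPM. B cell markers summed to 49.0 and 69.5 CPM against 30.2 and 25.85 CPM. Macrophage markers went the other way, at 22340 and 23390 CPM against 27510 and 26190 CPM. In the 3 week set hypergravity library 1 also had the highest endothelial, neutrophil and B cell sums (107.7, 2972 and 40.8 CPM). The part of any of these cells in the BMSC values was not tested.

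**Figure D3:**
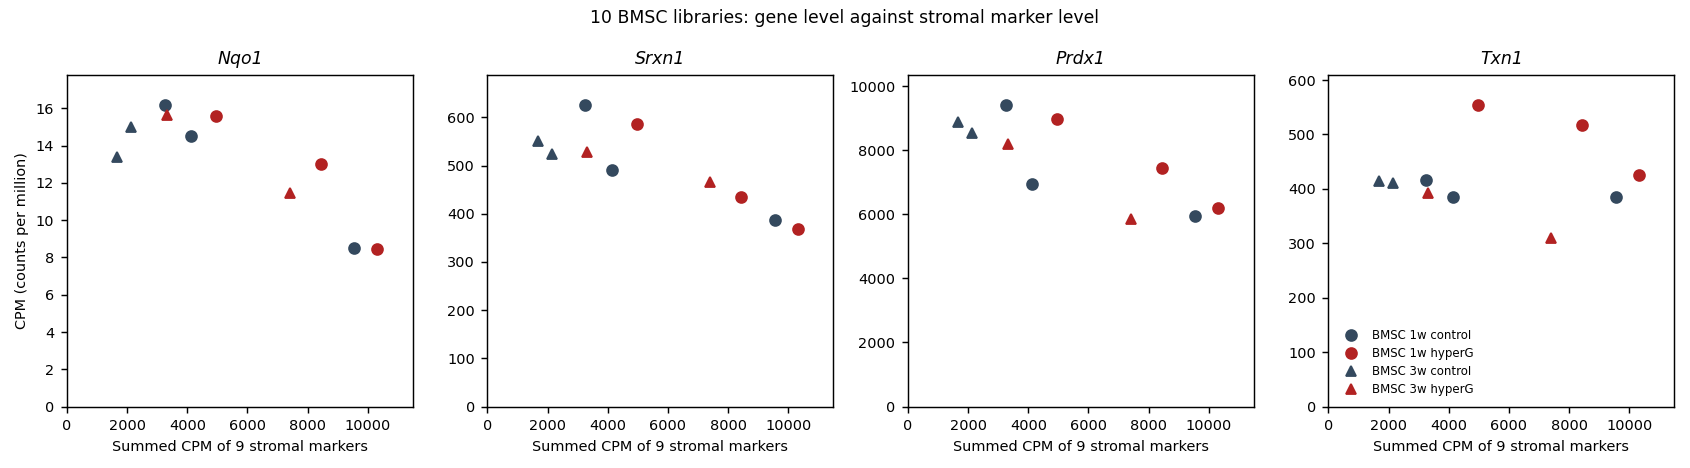
CPM of Nqo1, Srxn1, Prdx1 and Txn1 against the summed CPM of 9 stromal markers in the 10 BMSC libraries; circles are the 1 week set, triangles the 3 week set, red hypergravity and blue-grey control. Nqo1 and Srxn1 are lowest in the 2 libraries with the highest stromal level, at 9554 and 10310 CPM, 1 of them a control and 1 a hypergravity library.

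Between the 3 week and the 1 week BMSC controls edgeR called none of the 10 genes, with 2 at an unadjusted p below 0.05, where 7.05% of all genes were called, 3.32% higher and 3.73% lower. Hmox1 stood at 1300 and 1193 CPM in the 3 week controls, above the 788 to 993 CPM of the 1 week controls (0.53 ± 0.18, edgeR adjusted p = 0.0947). It was called with library size alone (0.049), by DESeq2 (0.0253), with no count filter (0.00657) and without 1 week control 3 (0.0277); without that library Keap1 was called as well (0.0407). Both 3 week hypergravity libraries carried Hmox1 at a similar level, 1257 and 1264 CPM. Hemoglobin and other erythroid markers also summed higher in the 3 week BMSC controls, 12.8 to 13.3 CPM against 0.847 to 1.04 CPM. Endothelial markers were called lower there for 3 of 6 genes (62.7 to 64.4 CPM in sum against 121 to 291 CPM) and stromal markers for 1 of 9 (1670 to 2140 CPM against 3240 to 9550 CPM), while 2 of 8 macrophage markers and 2 of 5 tested T and NK cell markers were called higher. Between BMDM controls erythroid markers summed to 12.3 to 12.7 CPM at 3 weeks against 0.654 to 1.06 CPM. Hmox1 was not called there (−0.15 ± 0.10, edgeR adjusted p = 0.444). The part of all these cells in the BMSC Hmox1 difference was not tested.

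Tested in a fit of all 19 libraries, the 1 week response was greater in BMDM than in BMSC for all 10 genes, where 49.6% of all genes were called, 24.8% with the greater response in BMDM. Neutrophil markers were called lower for 6 of 9 genes in the same difference. So were 2 of 5 tested T and NK cell, 2 of 4 mast cell, 1 of 3 erythroid and 1 of 6 B cell markers. Stromal markers were called higher for 2 of 9 genes and endothelial for 1 of 6, and macrophage markers higher for 1 of 8 and lower for 1. The part of these cells was not tested. The differences of the 10 genes ran from 0.46 ± 0.16 for Nfe2l2 to 3.59 ± 0.21 for Hmox1 on the log2 scale. Those of Nfe2l2 (edgeR adjusted p = 0.0274) and Prdx1 (0.85 ± 0.32, 0.0359) were the least firm. Leaving out 1 library lost the Nfe2l2 call for 7 of 19 libraries (0.0604 to 0.0966), namely BMDM control 2, either BMDM hypergravity library, BMSC control 1 or 3 and BMSC hypergravity library 1 or 2 of the 1 week set. It lost the Prdx1 call for 11 (0.0513 to 0.127): BMDM controls 2 and 3, both BMDM hypergravity libraries, BMSC control 3 and BMSC hypergravity libraries 1 and 2 of the 1 week set, and all 4 BMDM libraries of the 3 week set. With library size alone, which moves the calls from 3863 higher and 3849 lower to 2662 and 5366, neither was called (0.281 and 0.0928), and Nfe2l2 was not called with no count filter either (0.0726). At 3 weeks the difference between cell types was called for none of the 10 by edgeR or DESeq2, 0 had an unadjusted p below 0.05, and 0.251% of all genes were called, 0.244% higher and 0.00643% lower in BMDM.

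Without hypergravity, 2 of the 10 genes were higher in BMDM and 5 were lower than in BMSC, where 49.8% of all genes were called, 22.2% higher and 27.7% lower. Markers of other cells differed too: in BMDM stromal markers were lower for 9 of 9 genes, neutrophil markers for 9 of 9, endothelial for 6 of 6, B cell for 5 of 6, T and NK cell for 3 of 5 tested and mast cell for 4 of 4 tested, and macrophage markers were higher for 4 of 8 and lower for 2. Their part in these differences was not tested. Nfe2l2 was higher in BMDM, at 347 to 415 CPM over the 5 control libraries against 295 to 357 CPM in BMSC (0.33 ± 0.09, edgeR adjusted p = 0.00457). Gclm and Txnrd1 were lower in BMDM, by −0.64 ± 0.11 and −0.55 ± 0.11 (adjusted p = 0.000188 and 0.000609), as were Nqo1 (−0.71 ± 0.21, 0.0104) and Gclc (−0.31 ± 0.09, 0.00905). Gclm ran from 138 to 172 CPM in the BMDM controls and from 226 to 283 CPM in those of BMSC, with no overlap. The calls for Hmox1, lower in BMDM (−0.27 ± 0.11, 0.0443), and Keap1, higher (0.23 ± 0.08, 0.0322), were lost when 1 library was left out for 15 and 7 of 19 libraries (0.0535 to 0.152 and 0.0542 to 0.13), including both 3 week BMDM controls in each case. With library size alone, 1 gene was called higher and 7 lower, with Keap1 lost (0.208) and Srxn1 (0.0138) and Txn1 (0.00338) gained as lower in BMDM; that scaling moves all calls from 3448 higher and 4301 lower to 2343 and 5359. Srxn1, Txn1 and Prdx1 were not called (edgeR adjusted p = 0.133, 0.0874 and 0.692). Srxn1 was called without 1 week BMSC control 2 (0.0264) and with no count filter (0.0147). Txn1 was called without 1 week BMDM control 1 (0.0323), with no count filter (0.0458) and by DESeq2 (0.0376). The Keap1 call was also lost with no count filter (0.0743).

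Across the 8 groups the order of levels repeated in part. For all 10 genes the 1 week BMDM hypergravity group was highest and did not overlap the next group. For Nqo1, Gclm, Gclc, Srxn1, Txnrd1 and Txn1 the 4 BMSC groups came next by their means. Neighbouring BMSC groups overlapped for each of these genes, except that the 1 week hypergravity group of Txn1 stood apart from the BMSC group below it. For Nfe2l2 the 4 BMDM groups stood above the 4 BMSC groups by their means, from 425 CPM in the 1 week BMDM hypergravity group to 310 CPM in that of BMSC, and the 4 BMSC groups overlapped from neighbour to neighbour. For Hmox1 the 3 week BMSC groups came next, at 1261 and 1246 CPM.

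Genes around this pathway were taken from 7 lists, none of which holds any of the 10 genes. In BMDM at 1 week 44 of their 100 tested genes were called higher, 30 lower and 26 not at all, where 61.4% of all genes were called, 30.5% higher and 30.8% lower. Counts of calls in the lists below are to be read against those shares, and several lie close to them. Of 15 tested genes that control or partner NRF2, 8 rose and none fell, with a median log2 change of 0.37. Maff, a small MAF partner of NRF2, stood at 2.68 ± 0.51 CPM in controls and at 157 ± 3.8 CPM under hypergravity (SD, n = 3 and n = 2; log2 change 6.16 ± 0.16, edgeR adjusted p = 1.75e-09). The partners Mafk (2.02 ± 0.09) and Mafg (1.43 ± 0.09) rose with smaller changes. Sqstm1, the autophagy receptor p62 that binds KEAP1, rose from 647 ± 38 to 2942 ± 111 CPM (2.45 ± 0.08).

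The list for glutathione synthesis, reduction and use moved both ways in BMDM at 1 week, with 8 of 17 tested genes higher, 5 lower and a median of −0.19. Slc7a11, the cystine importer, stood at 28.8 ± 9.9 CPM in controls and at 684 ± 111 CPM under hypergravity (4.83 ± 0.22). Its heavy chain Slc3a2 (2.58 ± 0.09) and the glutathione reductase Gsr (1.05 ± 0.09) rose as well. Gpx1, a glutathione peroxidase, fell from 809 ± 158 to 113 ± 10 CPM (−2.58 ± 0.17).

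The thioredoxin and peroxiredoxin list was split, with 6 of 16 genes higher, 6 lower and a median of −0.057. The peroxiredoxins Prdx5 (2.86 ± 0.15) and Prdx6 (1.77 ± 0.10) rose in BMDM at 1 week. Txnip, an inhibitor of thioredoxin, fell from 929 ± 15 to 162 ± 4.7 CPM (−2.25 ± 0.10), and the sestrin Sesn1 fell from 177 ± 14 to 9.19 ± 0.88 CPM (−4.01 ± 0.13). Of 12 genes that supply NADPH, 4 rose and 5 fell, with a median of −0.11. Me1 (2.35 ± 0.21), Me2 (1.28 ± 0.09) and Mthfd2 (2.76 ± 0.15) were among the former, and Idh1 (−2.67 ± 0.10) was among the latter.

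Other detoxification and metal genes gave 10 higher and 11 lower of 25 tested, with a median of −0.14. The metallothionein Mt2 stood at 1.38 ± 0.74 CPM in controls and at 90.1 ± 6.0 CPM under hypergravity (6.39 ± 0.34), and the reductase Ptgr1 rose by 1.34 ± 0.10. Nqo2, a relative of Nqo1, fell by 2.07 ± 0.11, and the epoxide hydrolase Ephx1 by 2.39 ± 0.13. Of 5 genes listed under the removal of superoxide or hydrogen peroxide, 1 rose and 2 fell, with a median of −0.29. Sod2, the mitochondrial superoxide dismutase, rose from 78.7 ± 1.1 to 1598 ± 62 CPM (4.61 ± 0.09, edgeR adjusted p = 7.38e-10), whereas the cytosolic Sod1 fell from 253 ± 42 to 120 ± 13 CPM (−0.81 ± 0.15), as did its copper chaperone Ccs (−1.08 ± 0.16).

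In the oxidant list 7 of 10 tested genes rose in BMDM at 1 week and 1 fell, with a median of 0.81. Nos2, the inducible nitric oxide synthase, averaged 0.311 ± 0.213 CPM in controls and 1270 ± 118 CPM under hypergravity (12.3 ± 0.27, a size that depends on the few counts of its controls). Cybb, the catalytic subunit of the phagocyte NADPH oxidase, rose from 1463 ± 386 to 4235 ± 414 CPM (1.80 ± 0.16) and Rac2, an activator of that oxidase, by 1.01 ± 0.09. Aoah (3.00 ± 0.25) was in this list too, and its enzyme deacylates bacterial lipopolysaccharide.

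**Figure D4:**
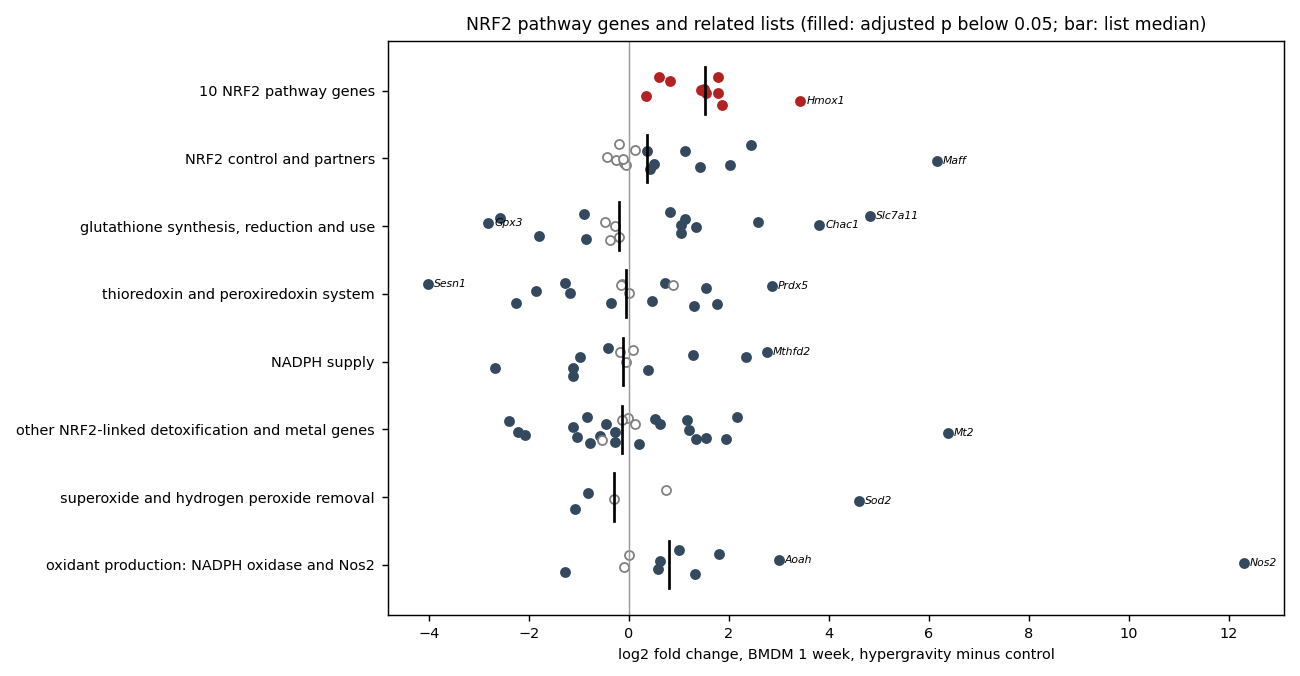
Log2 fold change, hypergravity minus control, in BMDM at 1 week for the 10 NRF2 pathway genes (red) and the tested genes of 7 related lists (blue-grey where called), 1 point per gene with vertical jitter only; filled points have an edgeR adjusted p below 0.05 and bars are list medians. The 10 genes lie above 0 with a median of 1.52, while the thioredoxin, NADPH supply and detoxification lists lie on both sides of 0.

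At 3 weeks in BMDM 3 of the 100 tested genes in these lists were called, all higher, where 0.426% of all genes were. Slc7a11 stood at 30.1 ± 0.55 CPM in controls and at 80.6 ± 6.9 CPM under hypergravity (1.46 ± 0.24, edgeR adjusted p = 0.0295, n = 2 and 2). Sod2 rose from 73.3 ± 1.0 to 148 ± 16 CPM (1.05 ± 0.10, adjusted p = 0.000568), and Nos2 from 0.0491 ± 0.0695 to 6.17 ± 0.92 CPM (6.85 ± 0.51, adjusted p = 0.000106); the Nos2 fold depends on the few counts of its controls. In BMSC 3 of 102 tested genes were called at 1 week, all lower, close to the share of all genes (2.72% called, 2.47% lower). They were Gsk3b (−0.49 ± 0.08, adjusted p = 0.0166) and Crebbp (−0.49 ± 0.10, 0.0345), a kinase that marks NRF2 for degradation and a coactivator, and the iron exporter Slc40a1 (−0.41 ± 0.09, 0.0452). These calls were lost without control 1, without hypergravity library 2 and with only the 2 groups compared, where 0 of all genes were called, and in the fit of all 19 libraries, which called 2 genes, both higher. At 3 weeks edgeR called 0 of 102 in BMSC.

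The genes whose 4 log2 changes lay nearest to those of Hmox1, by Euclidean distance among 9763 genes, were Ralgds, Plpp3 and Itgal, at distances of 0.184 to 0.206. The nearest to Gclm were Slc38a7, Serac1 and Ppp4r2 (0.139 to 0.169), and the nearest to Nqo1 were Mettl6, Kpna4 and Sp140 (0.0657 to 0.0988). Samd8, Hk3 and Fam214b lay nearest to Srxn1 (0.0589 to 0.0922), and Atf2, Smc5 and Rab7-ps1 to Nfe2l2 (0.0539 to 0.0588). None of these 15 is among the 10 genes. The closeness covers 4 comparisons only, and the 1 week BMDM change was the greatest of the 4 for each of the 5 genes.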

How the data were processed

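Total RNA from 19 libraries was sequenced. HISAT2 2.0.4 and the build mm10 are named, per the submitters' processing notes. How reads were assigned to genes, with which gene models and whether by strand, is not stated in those notes or labels. The deposited values are raw counts, 1 row per gene symbol and 1 column per library. Strand being unknown, reads of overlapping or antisense genes cannot be told apart; antisense exons cover 10.9% of Keap1 exons.

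CPM were taken per raw library total, with no pseudocount. Gene counts were tested with edgeR 4.0.16 (R 4.3.3), quasi-likelihood, TMM scaling and filterByExpr, 1 coefficient per group, Benjamini-Hochberg over all genes tested. BMDM (13842 genes, 5 residual degrees of freedom) and BMSC (15289 genes, 6) were fitted separately, and contrasts between cell types used all 19 libraries (15550 genes, 11). Intervals are 95% intervals of that fit. Fits were tested on simulated data. Gene positions and exon lengths are from GENCODE M21, mm10; promoters are from RefSeq.

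The 10 genes, the 7 pathway lists and the marker lists were chosen with earlier results of these data known. Genes named are the 10, up to 4 called genes of each list with the smallest p per comparison, and the 3 nearest in pattern to 5 of the 10 (mean of at least 5 CPM). Alternatives were DESeq2 1.42.0, its size factors, library size alone, no count filter, a filter at 1 CPM, only the groups compared, a block for replicate number, all libraries in 1 fit and omission of each library.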

Additional observations from a re-analysis of the deposited data

Results flagged for a closer look

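These results were picked out because the response to hypergravity differed between the 1 week and 3 week sets or between the cell types by a test of the difference itself (edgeR, adjusted over all genes tested). No explanation is weighed. In BMDM the 3 week minus 1 week difference of the log2 response was −3.03 for Hmox1, −1.73 for Txnrd1, −1.62 for Nqo1, −1.48 for Srxn1, −1.46 for Gclm, −1.38 for Gclc, −1.36 for Txn1, −0.70 for Keap1 and −0.67 for Prdx1, with adjusted p from 6.73e-07 to 0.0199. At 1 week the BMDM minus BMSC difference of the log2 response was 3.59 for Hmox1, 2.12 for Txnrd1, 1.90 for Nqo1, 1.79 for Gclm, 1.69 for Srxn1, 1.68 for Gclc, 1.20 for Txn1, 0.85 for Prdx1, 0.64 for Keap1 and 0.46 for Nfe2l2, with adjusted p from 6.75e-10 to 0.0359. Both differences draw on the same 2 hypergravity and 3 control BMDM libraries of the 1 week set and are not independent.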

How the results depend on the processing

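Over 27 alternatives, 1952 of 2020 values of the 10 genes kept their side of the threshold, 51 fell short of it and 17 newly passed it. No called value changed sign. Among the 1952 were 78 values that neither fit called and whose sign changed. The number of the 10 called in BMDM at 3 weeks, 0, became 1 (Hmox1) with no count filter, with the replicate number as a block and with only the 2 groups compared, and was 0 to 1 with each library left out. For the difference between BMSC controls it became 1 with library size alone, DESeq2 and no count filter, and was 0 to 2 with each library left out. Replicate numbers were not taken as pairs. Deviations of same-numbered libraries correlated over genes at −0.105, 0.118 and 0.382 in the 1 week BMSC set. Those of differently numbered libraries there ran from −0.456 to 0.429. In the 1 week BMDM set the same-numbered values were 0.207 and −0.0766. With 2 hypergravity libraries each such value has an equal one of opposite sign, so they cannot decide on pairing. The block changed 1 further call of the 10 (Nfe2l2, difference between BMDM sets). Counts of all genes called moved most in BMDM at 3 weeks (59; 35 to 205), between BMDM controls (549; 39 to 3222), in BMSC at 1 week (416; 0 to 1313) and 3 weeks (0; 0 to 592), between BMSC sets (0; 0 to 391), between BMSC controls (1078; 103 to 2720) and between cell types at 3 weeks (39; 22 to 342). The cause of these shifts was not tested.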
